A study of Homo sapiens with 6 samples.

Results

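The 10 genes examined belong to the matrix metalloproteinase (MMP) system of T24 bladder cancer cells: the 7 proteinase genes MMP1, MMP2, MMP3, MMP9, MMP10, MMP13 and MMP14, and the 3 inhibitor genes TIMP1, TIMP2 and TIMP3. They were taken by gene symbol, and are 10 of the 58174 genes in the files. T24 is an established line from a human bladder carcinoma. All samples carried a lentiviral shRNA and were selected with puromycin as stable cells. In 3 samples the shRNA was a control (shRNA-NC) and 3 carried an shRNA against UBC9 (shRNA-UBC9), so 6 polyA RNA libraries were compared, 3 per group. UBC9 is the enzyme that conjugates SUMO to proteins. A single hairpin against UBC9 was used, so the knockdown and other effects of this hairpin cannot be told apart. The sources used here do not say whether the 3 samples of a group came from separate cultures, so the p-values measure only the spread between these samples.

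MMPs are zinc endopeptidases that cut collagens, laminins and other proteins of the extracellular matrix, and several also cut growth factors, receptors and each other's proforms. Collagenases (MMP1, MMP13) open the triple helix of fibrillar collagen, stromelysins (MMP3, MMP10) cut a wide range of non-fibrillar matrix proteins and activate other proMMPs, and gelatinases (MMP2, MMP9) degrade denatured and basement membrane collagen. MMP14 sits in the cell membrane, where it acts as a collagenase and activates proMMP2. TIMPs are secreted inhibitors that bind the catalytic site of MMPs. MMP activity in bladder and other carcinomas is studied for its part in invasion, and the abundance of a transcript does not give the activity of the enzyme, which also depends on proform activation.

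Relative depth, estimated from the lowest RPKM values (reads per kilobase of gene, scaled by the mapped reads of the library), ranged from 0.945 to 1.208 and overlapped between the groups. Replicates of a group correlated at 0.9785 to 0.9904 across the 12428 tested genes, which are not independent replicates. Of 7 epithelial markers, KRT5 was listed at 0 and CDH1 stayed under 0.1 RPKM in all 6 samples, and KRT7, KRT8, KRT18 and KRT19 carried most of the summed level, which was 938 to 1108 RPKM in shRNA-NC and 426 to 564 RPKM in shRNA-UBC9. EPCAM, the remaining marker, had means of 0.658 RPKM in shRNA-NC and 1.505 RPKM in shRNA-UBC9 and did not pass the test (limma adjusted p = 0.098). The summed levels of 7 fibroblast markers (0.988 to 1.33 and 0.900 to 1.31 RPKM) and of 7 leukocyte markers (0.675 to 1.49 and 0.792 to 1.94 RPKM) were low in both groups, where COL1A2, DCN, LUM, ITGAM and CSF1R were under 0.1 RPKM throughout. The 2 fibroblast markers that were tested moved in opposite directions, COL1A1 with a log2 fold change of 0.95 (limma adjusted p = 0.028) and PDGFRB, which passed the expression filter only through shRNA-NC, with -1.48 (limma adjusted p = 0.0033). The sum of 5 endothelial markers was 2.63 to 3.26 RPKM in shRNA-NC and 0.349 to 1.07 RPKM in shRNA-UBC9. CDH5 made up nearly all of it in shRNA-NC and most of it in shRNA-UBC9, with PECAM1, VWF, KDR and TEK under 0.1 RPKM. The part that the lower keratin and CDH5 levels have in the results below was not tested.

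Knockdown of UBC9 was accompanied by higher levels of the collagenase, stromelysin and MMP14 transcripts and of TIMP1, and by lower levels of TIMP3 and, slightly, TIMP2. MMP1 went from 0.252 ± 0.042 to 62.75 ± 20.9 RPKM (SD, n = 3 each), MMP14 from 48.5 ± 9.5 to 133.9 ± 23.6 RPKM, TIMP1 from 87.4 ± 5.2 to 293.3 ± 68.8 RPKM and TIMP3 from 7.76 ± 1.37 to 1.08 ± 0.40 RPKM. The gelatinases MMP2 and MMP9 stayed at or near 0 in both groups. The test was limma on log2(RPKM + 0.1) for genes that reached 0.5 RPKM in 3 or more samples, with adjustment by Benjamini-Hochberg over all 12428 such genes. A gene was called a DEG with an adjusted p below 0.05 and an absolute log2 fold change above 1. Of the 10 genes, 8 were tested, 6 of them were DEGs higher in shRNA-UBC9, where 5.2% of all tested genes were, and 1 was a DEG lower in shRNA-UBC9, where 2.7% were, so that 7 were DEGs in either direction, beside 7.89%. MMP1, MMP3 and MMP10 passed the expression filter only through the shRNA-UBC9 samples, so they had to differ, their p-values are descriptions and the count is not support. All 8 had an adjusted p below 0.05, against 36.8% of tested genes. For 6 of them all shRNA-UBC9 samples lay above all shRNA-NC samples, as for 25.7% of tested genes, and for 2 all lay below, as for 25.4%. A two-sided exact permutation test over the samples gave p = 0.1 for each of the 8, the smallest p that 3 against 3 allows. In these bulk samples, a change in the share of cells that express a gene and a change in RNA per cell cannot be told apart.

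**Figure D1:**
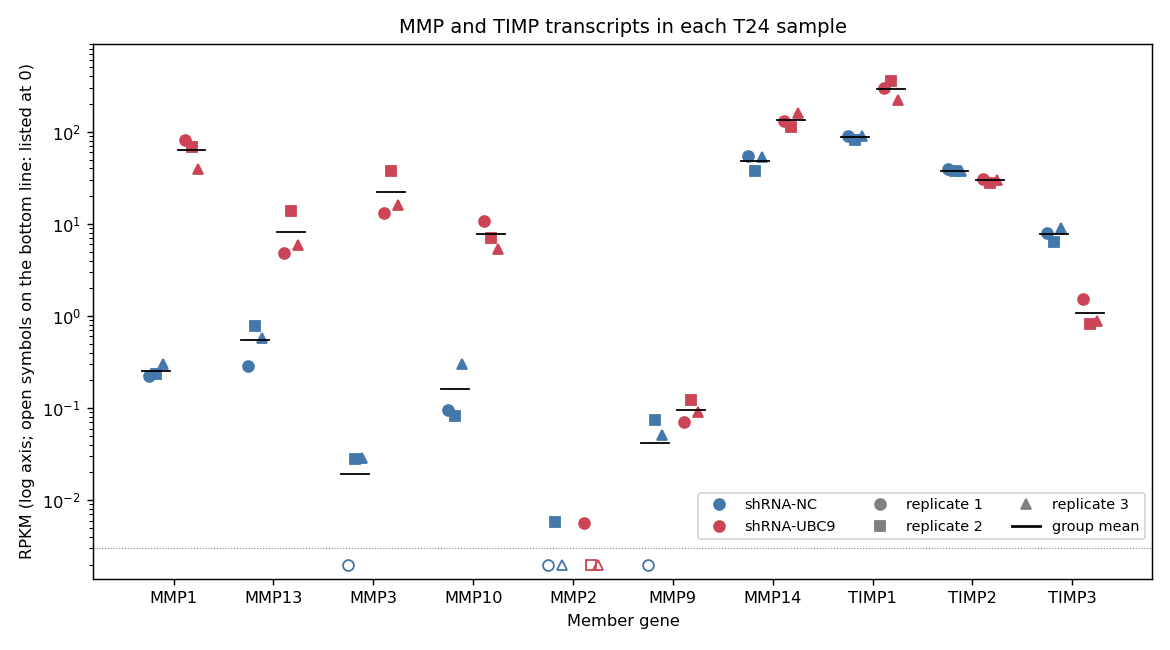
RPKM of the 10 genes on a log axis in each of the 3 shRNA-NC (blue) and 3 shRNA-UBC9 (red) samples, with symbols for the replicate, a bar for the group mean and open symbols below the dotted line for values listed at 0. MMP1, MMP3, MMP10, MMP13, MMP14 and TIMP1 are higher in all 3 shRNA-UBC9 samples than in any shRNA-NC sample, TIMP2 and TIMP3 are lower in all 3, and the groups overlap for MMP2 and MMP9.

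MMP1, the main interstitial collagenase, had 0.221, 0.234 and 0.300 RPKM in the shRNA-NC samples and 80.6, 67.8 and 39.8 RPKM in the shRNA-UBC9 samples. The groups did not overlap, and within shRNA-UBC9 replicate 3 was lowest, with replicate 1 higher by a factor of 2.02. The log2 fold change was 7.43 (standard error, SE, 0.24, limma adjusted p = 2.875e-06). The ratio of the group means was 249. RPKM values of a gene were whole multiples of a smallest step, which stands for at least 1 read at the depth of the sample, and the MMP1 values were 13, 16 and 20 steps in shRNA-NC and 5729, 4704 and 2214 steps in shRNA-UBC9. The shRNA-NC level of MMP1 was therefore low but above 0 in every sample.

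MMP13, the other collagenase, had 0.284, 0.774 and 0.574 RPKM in shRNA-NC and 4.79, 13.9 and 5.98 RPKM in shRNA-UBC9. The groups were separate, and replicate 2 stood highest in both groups. Its log2 fold change of 3.61 (SE 0.42, limma adjusted p = 0.0005285) was the smallest of the 4 genes in the chromosome 11 cluster described below. MMP13 was the only one of these 4 to reach 0.5 RPKM in any shRNA-NC sample.

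MMP3, stromelysin-1, was listed at 0 in shRNA-NC replicate 1 and had 0.0282 and 0.0289 RPKM in replicates 2 and 3, against 13.3, 37.6 and 16.2 RPKM in shRNA-UBC9. The shRNA-NC values were 0, 1 and 1 steps, and the shRNA-UBC9 values were 490, 1355 and 467 steps. Corrected for relative depth, 2312 steps against 2 gave a ratio of 1142, with an exact 95% interval of 316 to 9437 that covers counting error only and takes a step as 1 read. The fitted log2 fold change was 7.41 (SE 0.35, limma adjusted p = 1.412e-05), and it was 4.37 with a pseudocount of 1 and 9.67 with a pseudocount of 0.01. The size of the fitted change thus depended on the pseudocount.

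MMP10, stromelysin-2, had 0.0953, 0.0821 and 0.303 RPKM in shRNA-NC and 10.7, 7.09 and 5.34 RPKM in shRNA-UBC9. The groups were far apart, and shRNA-NC replicate 3 stood above the other shRNA-NC samples, with 18 steps against 5 and 5. Its log2 fold change was 4.95 (SE 0.35, limma adjusted p = 5.405e-05), and 2.87 with a pseudocount of 1. The ratio of the group means was 48.2.

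MMP14, the membrane-type enzyme, was the one MMP of the 7 that was abundant in both groups. It had 55.1, 37.6 and 52.9 RPKM in shRNA-NC and 130.4, 112.2 and 159.1 RPKM in shRNA-UBC9, with no overlap. The log2 fold change was 1.47 (SE 0.17, limma adjusted p = 0.0005969), a ratio of means of 2.76. One proenzyme that MMP14 is known to activate, proMMP2, had almost no transcript in the same samples. MMP2 was listed at 0 in 4 of 6 samples and had a single step, 0.00585 RPKM in shRNA-NC replicate 2 and 0.00562 RPKM in shRNA-UBC9 replicate 1.

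MMP9, the second gelatinase, was listed at 0 in shRNA-NC replicate 1 and had 0.0742 and 0.0506 RPKM in replicates 2 and 3. In shRNA-UBC9 it had 0.0712, 0.121 and 0.0910 RPKM, so the groups overlapped. The depth-corrected ratio, from 11 steps against 5, was 2.17 with an exact 95% counting interval of 0.70 to 7.98. A difference in MMP9 was thus not detectable with so few steps. Tested with no filter on low values, its log2 fold change was 0.49 (SE 0.23, limma adjusted p = 0.212).

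Among the inhibitors, TIMP1 was the most abundant of the 10 transcripts in both groups. TIMP1 had 90.9, 81.4 and 89.9 RPKM in shRNA-NC and 303.0, 356.8 and 220.2 RPKM in shRNA-UBC9. The lowest shRNA-UBC9 sample, replicate 3, was still well above the highest shRNA-NC sample. The log2 fold change was 1.72 (SE 0.16, limma adjusted p = 0.0002439).

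TIMP3 moved the other way. It is the TIMP that binds to the extracellular matrix, and it also inhibits ADAM17 and several ADAMTS enzymes. It had 8.01, 6.29 and 8.99 RPKM in shRNA-NC and 1.54, 0.814 and 0.885 RPKM in shRNA-UBC9. The log2 fold change was -2.77 (SE 0.23, limma adjusted p = 0.000119), and TIMP3 was the 11th lowest of the 12428 tested genes. In steps, 1100, 1002 and 1401 in shRNA-NC stood against 255, 132 and 115 in shRNA-UBC9, so the low level in shRNA-UBC9 was well above the limit of detection.

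TIMP2, which besides its inhibition takes part in the activation of proMMP2 by MMP14, was the steadiest of the 8 tested genes. It had 39.0, 37.2 and 37.4 RPKM in shRNA-NC and 31.0, 27.7 and 30.3 RPKM in shRNA-UBC9. All 3 shRNA-UBC9 samples were below all 3 shRNA-NC samples. The log2 fold change of -0.35 (SE 0.08, limma adjusted p = 0.01116) was too small for a DEG. Without shRNA-UBC9 replicate 2 it was -0.30, with an adjusted p of 0.05228. For the protein, the paper reports the opposite direction, since its cytokine antibody array lists TIMP-2 as higher with UBC9 knocked down. TIMP-1 was also on this array and is not among the proteins the paper names as increased, whereas the TIMP1 transcript rose. The array was run on cell lysates, although TIMPs are secreted. The differences between transcript and protein were not tested.

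The RefSeq promoter table (GRCh38.p14) held 4 of the 10 genes: MMP10, MMP14 and TIMP1, which rose, and TIMP3, which fell. The 150 bases before their RefSeq start sites are shown because genes that moved in opposite directions can be compared, with the matches named below in capitals. They lie at chr11:102780629-102780778 (minus strand), chr14:22836435-22836584, chrX:47582286-47582435 and chr22:32801555-32801704 (plus strand), each written 5′ to 3′ and matching the hg38 genome. For MMP14 and TIMP1 the RefSeq start lies downstream of the GENCODE gene start given below, so these windows reach into the gene. Positions are counted from the RefSeq start. MMP1, MMP13, MMP3, MMP2, MMP9 and TIMP2 were not in the table.
MMP10: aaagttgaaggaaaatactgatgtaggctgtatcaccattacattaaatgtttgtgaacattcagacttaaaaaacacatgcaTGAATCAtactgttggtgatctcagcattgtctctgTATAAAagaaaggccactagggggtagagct
MMP14: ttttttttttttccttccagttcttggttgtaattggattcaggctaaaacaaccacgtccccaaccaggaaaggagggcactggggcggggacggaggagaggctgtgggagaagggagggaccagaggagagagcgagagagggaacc
TIMP1: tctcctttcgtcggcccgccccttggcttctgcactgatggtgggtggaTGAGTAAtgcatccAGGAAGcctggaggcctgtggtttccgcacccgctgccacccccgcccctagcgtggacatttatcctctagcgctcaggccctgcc
TIMP3: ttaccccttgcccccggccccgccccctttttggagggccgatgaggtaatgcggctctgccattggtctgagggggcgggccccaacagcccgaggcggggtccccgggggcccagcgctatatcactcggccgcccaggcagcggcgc

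MMP genes are textbook targets of AP-1, the FOS and JUN dimer. The letters TGAGTCA, or TGACTCA on the other strand, were in 2.89% of the 35116 promoter windows of the same length and in none of these 4. With any middle base (TGANTCA, which reads alike on both strands and includes the former), the share was 4.17%, and MMP10 held TGAATCA from position -67, where -1 is the base before the start. TGAGTAA, or TTACTCA on the other strand, was in 1.26% of windows, among them TIMP1 from position -101. The ETS-type letters AGGAAG, or CTTCCT on the other strand, were in 18.8% of windows, among them TIMP1 from -87. The TATA letters TATAAA, read on the sense strand, were in 4.54% of windows, among them MMP10 from -31. MMP14 and TIMP3 held none of the motifs searched. The MMP10 stretch had a GC content of 36.7% and the TIMP3 stretch 72.7%, against a median of 60.0% over all windows. The letters were chosen with these sequences known, and a match is not evidence of binding.

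The order of the 10 transcripts by RPKM, which corrects for gene length, differed between the groups. In shRNA-NC it was TIMP1, MMP14, TIMP2, TIMP3, MMP13, MMP1, MMP10, MMP9, MMP3 and MMP2. The ranges of the samples overlapped between MMP14 and TIMP2, between MMP13, MMP1 and MMP10, and between MMP9, MMP3 and MMP2. Within samples, MMP14 was above TIMP2 and MMP13 above MMP1 in all 3. The other overlapping neighbours kept their order in 2 of 3 samples. Overlap of ranges alone does not show that neighbours were alike, and the order was not tested. In shRNA-UBC9 the order was TIMP1, MMP14, MMP1, TIMP2, MMP3, MMP13, MMP10, TIMP3, MMP9 and MMP2. Here the ranges overlapped between TIMP2 and MMP3, between MMP3 and MMP13, and between MMP13 and MMP10. MMP3 was nevertheless above MMP13 in all 3 samples. The ranges of the other neighbours did not overlap. TIMP3 went from 58.0% of tested genes lying below it in shRNA-NC to 10.9% in shRNA-UBC9, whereas TIMP2 changed from 91.8% to 88.9%.

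The make-up of the summed transcripts differed accordingly. The 7 MMP genes together had 55.7, 38.8 and 54.2 RPKM in shRNA-NC, of which MMP14 made up 98.9%, 96.9% and 97.7%. In shRNA-UBC9 they had 239.9, 238.6 and 226.5 RPKM, of which MMP14 made up 54.4%, 47.0% and 70.2% and MMP1 33.6%, 28.4% and 17.6%. The sum was thus alike in the 3 shRNA-UBC9 samples although its parts varied, with MMP1 lowest and MMP14 highest in replicate 3. The TIMP sum was 124.9 to 137.9 RPKM in shRNA-NC and 251.4 to 385.4 RPKM in shRNA-UBC9. TIMP1 made up 65.19% to 65.98% of it in shRNA-NC and 87.6% to 92.6% in shRNA-UBC9, while TIMP3 made up 5.03% to 6.60% and 0.211% to 0.458%. Divided by the MMP sum, the TIMP sum was 2.48, 3.22 and 2.52 in shRNA-NC and 1.40, 1.61 and 1.11 in shRNA-UBC9. These sums over chosen genes are descriptions of transcript levels and were not tested.

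**Figure D2:**
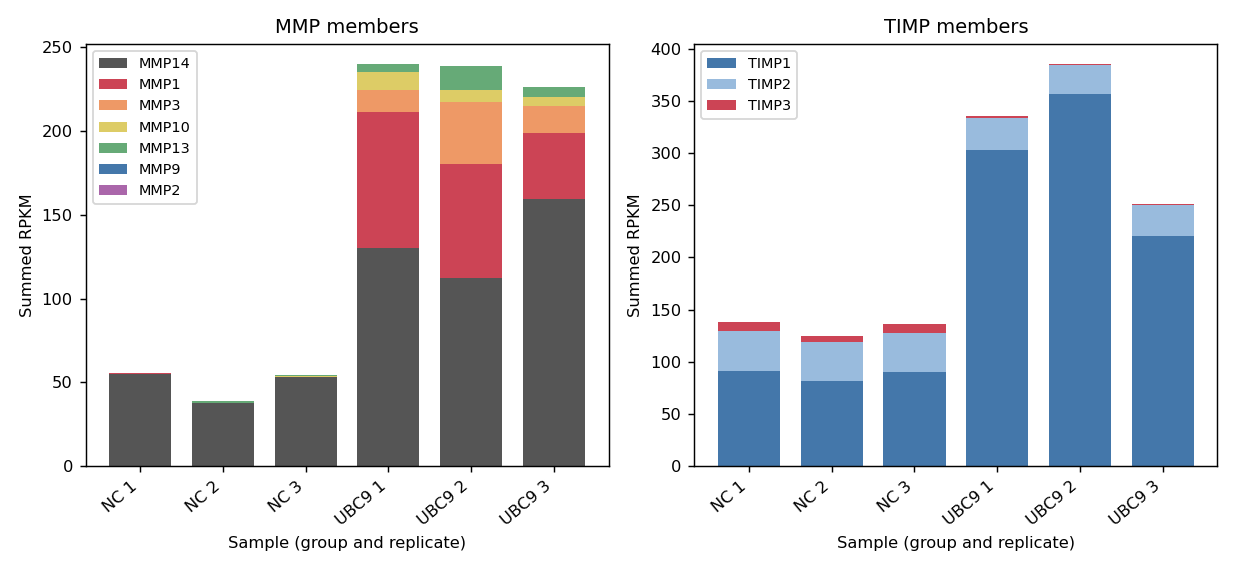
Summed RPKM of the 7 MMP genes (left) and the 3 TIMP genes (right) in each sample, stacked by gene. In shRNA-NC nearly the whole MMP sum of 38.8 to 55.7 RPKM is MMP14, whereas in shRNA-UBC9 MMP1, MMP3, MMP10 and MMP13 add 29.7% to 52.9% of a sum of 226.5 to 239.9 RPKM, and TIMP1 makes up most of the TIMP sum in every sample.

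MMP10, MMP1, MMP3 and MMP13 lie next to or near each other on chromosome 11, all on the minus strand. In GENCODE release 44 (GRCh38, the build the authors mapped to) MMP10 spans chr11:102770502-102780628, MMP1 chr11:102789401-102798160, MMP3 chr11:102835801-102843609 and MMP13 chr11:102942995-102955732. The 4 genes cover 185.2 kb of a cluster of 9 MMP genes that covers 435.2 kb. The 5 others did not reach the filter. MMP12, which lies between MMP3 and MMP13, was listed at 0 in all 6 samples, as were MMP20 and MMP27. MMP7 had at most 0.0249 RPKM and MMP8 at most 0.0660 RPKM in any sample. The higher levels in shRNA-UBC9 were therefore found for 4 of the 9 genes of the cluster, with a gene listed at 0 among them.

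The protein-coding neighbours of the cluster, a window chosen after the values were seen, differed among themselves. BIRC3, an inhibitor of apoptosis and an NF-kappaB target, was a DEG with a log2 fold change of 2.32 (limma adjusted p = 0.003358). On the same side, BIRC2 rose by 0.84 and TMEM123 fell by 0.36 on the log2 scale (adjusted p = 0.001988 and 0.02845). On the MMP13 side, DCUN1D5 rose by 0.54 (adjusted p = 0.001943) and DYNC2H1 had a log2 fold change of -0.13 (adjusted p = 0.442). PDGFD, also on that side, had means of 0.184 RPKM in shRNA-NC and 0.169 RPKM in shRNA-UBC9 and did not reach the filter. None of the tested flanking genes changed as much as MMP13, the least changed of the 4 cluster members.

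**Figure D3:**
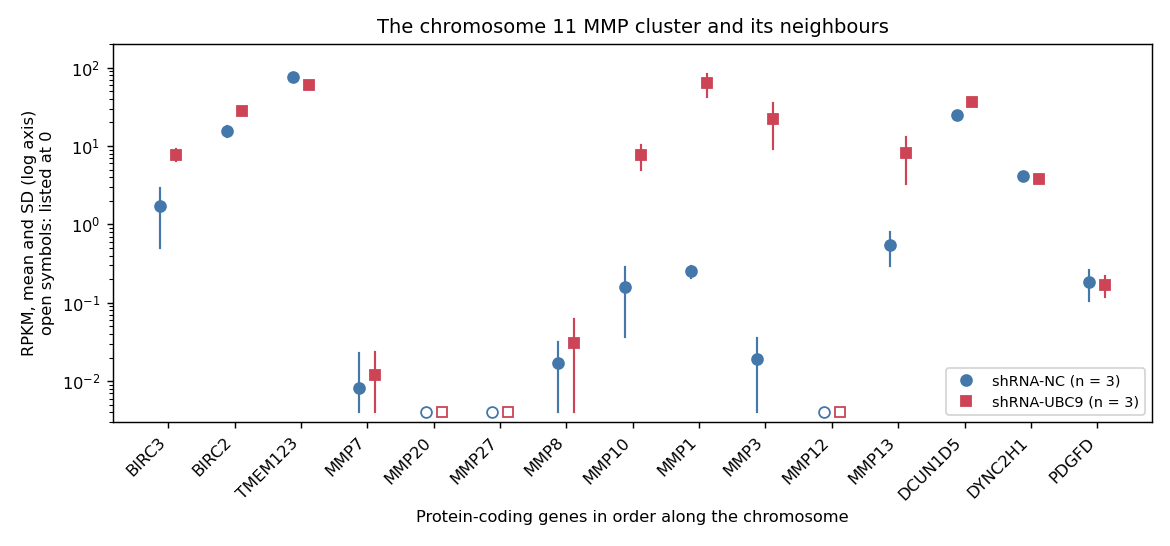
Mean RPKM (log axis) of the 15 protein-coding genes around the chromosome 11 MMP cluster in their order along the chromosome, for shRNA-NC (blue circles) and shRNA-UBC9 (red squares), with lines for the SD (n = 3) that are cut at the level of the open symbols, and these open symbols marking genes listed at 0. MMP10, MMP1, MMP3 and MMP13 are far higher in shRNA-UBC9, while MMP7, MMP20, MMP27, MMP8 and MMP12 stay at or near 0 in both groups.

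MMP1, MMP3 and MMP10 are related in sequence, and reads could be shared between them. This was measured on GENCODE release 44 transcripts, without gaps and without regard to introns. No 100-base window of the longest MMP1 transcript came within 20 mismatches of any MMP3 or MMP10 transcript, and the longest identical run was 18 bases with each. The 2 stromelysins were closer. MMP3 and MMP10 shared an identical run of 96 bases, and 11.3% of the 100-base windows of MMP3 were within 5 mismatches of MMP10 and 61.4% within 20 (63.7% of the MMP10 windows), although none was identical. The values of MMP3 and MMP10 therefore carry some uncertainty from each other that the MMP1 values do not, since how multi-mapping reads were counted is not stated. MMP1 had 3.3% of its windows within 20 mismatches of MMP8, the closest with 16 mismatches. MMP8 had at most 0.0660 RPKM in any sample. Within the shRNA-UBC9 samples the ratio of MMP3 to MMP10 was 1.24, 5.30 and 3.03. The part of shared reads in either value was not tested. MMP13 had no window within 20 mismatches of MMP1, MMP3 or MMP10.

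Ratios within a sample showed how the 4 cluster genes varied together. In the 3 shRNA-UBC9 samples MMP13 over MMP3 was 0.361, 0.369 and 0.370 and MMP1 over MMP10 was 7.54, 9.56 and 7.46. By contrast MMP1 over MMP3 was 6.08, 1.80 and 2.46. MMP3 and MMP13 were highest in replicate 2, and MMP1 and MMP10 were highest in replicate 1. In shRNA-NC the ratio of MMP13 to MMP3 was 27.5 and 19.9 in replicates 2 and 3, where MMP3 had a single step, too little to read a ratio from. With 3 samples this is a description.

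Overlapping genes on the other strand bear on some of these values, because strand was not stated to be used in counting. The pseudogene WTAPP1 shares 223 exon bases (8.1%) with MMP1 and 32 with MMP3, and it had at most 0.0347 RPKM in shRNA-NC and 0.0250 RPKM in shRNA-UBC9. SLC12A5-AS1 shares 430 bases (18.4%) of the exons of MMP9. TIMP1 and TIMP3 lie within SYN1 and SYN3 on the opposite strand, with no exon base in common in this annotation. An unnamed long non-coding gene on the other strand shares 367 bases (5.9%) with TIMP2. CEP295NL shares 224 bases (3.6%) with TIMP2 on the same strand and had at most 0.0515 RPKM. The other members lie at chr16:55389700-55506691 (MMP2), chr20:46008908-46016561 (MMP9), chr14:22836560-22849041 (MMP14), chrX:47582408-47586789 (TIMP1), chr17:78852977-78925387 (TIMP2) and chr22:32801705-32863041 (TIMP3).

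Of the rest of the family, 16 further MMP genes and TIMP4 were listed, and 12 of these 17 did not reach the filter. MMP24 was the highest of the 12, at most 0.234 RPKM, and MMP12, MMP20, MMP26, MMP27 and MMP28 were listed at 0 in all samples. Among the 5 tested, MMP15, a membrane-type MMP, rose from 1.95 ± 0.11 to 4.62 ± 0.19 RPKM (mean ± SD of 3 samples), with a log2 fold change of 1.21 (limma adjusted p = 0.0001083). MMP16, another membrane-type MMP, fell from 1.79 ± 0.40 to 0.724 ± 0.132 RPKM, a log2 fold change of -1.19 (adjusted p = 0.00311). The membrane-type MMPs thus did not move in one direction. The median log2 fold change of the 5 was -0.16, beside 0.00482 over all tested genes.

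In the list of MMP activators, inducers, further inhibitors and clearance receptors, 7 of 11 genes were tested, with 1 DEG in each direction, beside 5.2% higher and 2.7% lower among all tested genes, and a median log2 fold change of 0.29. PLAT, the tissue-type plasminogen activator, fell from 29.4 ± 10.4 to 10.2 ± 3.7 RPKM (mean ± SD of 3 samples), with a log2 fold change of -1.51 (adjusted p = 0.005931). PLAU, the urokinase-type plasminogen activator, is named here after its value was seen. It had means of 56.8 RPKM in shRNA-NC and 67.4 RPKM in shRNA-UBC9 and did not pass the test (limma adjusted p = 0.3738). Plasmin, which plasminogen activators form, is a known activator of proMMP1 and proMMP3, and PLG itself did not reach the filter.

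The ADAM and ADAMTS proteinases, several of which TIMP3 inhibits, had 14 of 23 genes tested, with 1 DEG in each direction and a median of -0.17, beside the 5.2% and 2.7% of all tested genes called higher and lower. Both DEGs had to differ, by the filter. ADAMTS9, a proteoglycan-cutting proteinase that passed the filter only through shRNA-UBC9, went from 0.114 ± 0.054 to 5.74 ± 1.58 RPKM (mean ± SD of 3 samples), with a log2 fold change of 4.76 (limma adjusted p = 1.962e-05). ADAMTS15, which passed the filter only through shRNA-NC, went from 1.23 ± 0.62 to 0.0735 ± 0.0593 RPKM, a log2 fold change of -2.90 (adjusted p = 0.0009987). ADAM17, the shedding enzyme for TNF and EGF receptor ligands, fell by 0.42 on the log2 scale (adjusted p = 0.04233), too little for a DEG.

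Of 19 matrix substrates, 11 were tested, 3 were DEGs higher in shRNA-UBC9 (5.2% of all tested genes) and none was a DEG in the other direction (2.7% of all), where 1 gene, NID1, had an adjusted p below 0.05 with a log2 fold change of -0.64. Among the DEGs were TNC, which encodes tenascin-C, and LAMB3, which encodes a laminin chain of basement membranes. Their log2 fold changes were 3.54 and 1.93 (limma adjusted p = 1.546e-05 and 6.999e-05). The median of the list was -0.008, well below the values of these DEGs.

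Transcription factors known at MMP promoters numbered 20, of which 19 were tested and 6 were DEGs, all higher in shRNA-UBC9 (5.2% of all tested genes), with a median log2 fold change of 0.578. The 4 most changed were CEBPB at 2.19, RELB at 1.99, FOS at 1.94 and NFKB2 at 1.76 on the log2 scale, each with an adjusted p of at most 0.002916 (limma). FOS passed the expression filter only through shRNA-UBC9, so it had to differ, and it remained low, at 0.312 ± 0.040 and 1.54 ± 0.58 RPKM (SD, n = 3 each). Ligands known to induce MMPs had 12 of 15 genes tested, 10 of them DEGs higher in shRNA-UBC9, again beside 5.2% of all tested genes, with a median of 2.64. The 4 most changed were IL6, CXCL8, IL1B and IL1A, with log2 fold changes of 5.38, 4.78, 4.09 and 3.52. TGFB2, named here after its value was seen, was the DEG in the other direction, at -1.46 (adjusted p = 0.02905). Both lists were written with the inflammatory changes in these samples known, so their counts are no independent evidence.

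**Figure D4:**
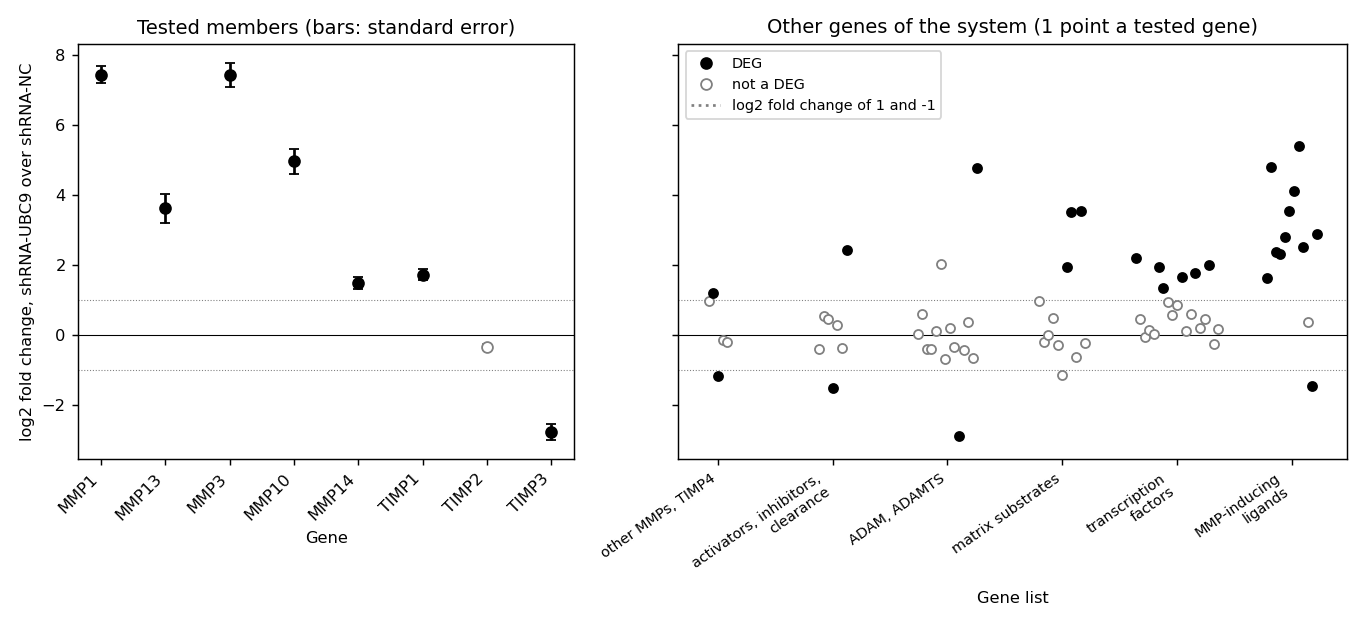
Log2 fold change of shRNA-UBC9 over shRNA-NC on the log2(RPKM + 0.1) scale for the 8 tested MMP and TIMP genes (left, with standard errors) and for the tested genes of 6 lists around them (right), with filled symbols for DEGs and dotted lines at 1 and -1. MMP1 and MMP3 reach 7.43 and 7.41 and TIMP3 is at -2.77, and in the lists most points lie between the dotted lines except among the MMP-inducing ligands.

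The genes whose log2(RPKM + 0.1) followed that of MMP1 most closely over the 6 samples were MTMR14, SENP2 and FGF2, with Pearson correlations of 0.9998, 0.9992 and 0.999. Their log2 fold changes were 0.43, 0.40 and 2.29. Since 122 genes correlated above 0.99 and the difference between the groups sets most of such a correlation, this is a description without a test.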

How the data were processed

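RNA-seq of 3 shRNA-NC and 3 shRNA-UBC9 samples of T24 cells was grouped by the sample titles. Trimming, mapping to GRCh38 and quantification were done by the authors in CLC Biomedical Genomics Workbench 4 (default parameters), and the deposited values are RPKM per gene. The annotation release, the strand setting and the treatment of multi-mapping reads are not given in the sources used here. RPKM corrects for gene length and depth but not for RNA composition.

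No count model was used. Values entered limma 3.58.1 (R 4.3.3, moderated variances with an intensity trend) as log2(RPKM + 0.1), for genes reaching 0.5 RPKM in 3 or more samples, with Benjamini-Hochberg adjustment. This scale understates the change of low genes. The fit was also run on simulated data with normal noise on the log2 scale. That setting is unlike the counting error of genes near 0, and no result here rests on it.

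Relative depth is the most frequent ratio between low RPKM values (under 0.1) of 2 samples. With it, the values of each of 1000 randomly drawn tested genes were whole multiples of 1 step within a tolerance of 0.0001 plus a small relative term. Absolute depth is not given, and intervals on steps cover counting error only.

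The 10 genes and all lists were chosen with earlier results of these data known. By rule, named genes are the 10 members, up to 4 DEGs per list with the largest absolute log2 fold change, and the 3 genes most correlated with the most changed member. Genes said to be named after their values were seen come on top. Others named outside the rule include the cell type markers, the chromosome 11 neighbours, the overlapping genes, NID1 and ADAM17. Some items covered by this rule, the check of the targeted gene among them, are not reported here. Other alternatives were other pseudocounts, filters, scalings, no trend, a replicate block, leaving out each sample, and an unadjusted threshold. Python 3.11.15, numpy 2.4.6, pandas 2.3.3, scipy 1.17.1 and matplotlib 3.10.9 were used.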

Additional observations from a re-analysis of the deposited data

How the results depend on the processing

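The 6 MMP and TIMP genes called higher and the 1 called lower kept these counts under every alternative but one. Requiring an RPKM of at least 1 in every sample left MMP14, TIMP1 and TIMP2 to test. Of these 3, 2 were DEGs higher in shRNA-UBC9 (MMP14 and TIMP1), 0 were DEGs lower and all 3 had an adjusted p below 0.05. MMP1, MMP3, MMP10, MMP13 and TIMP3 were not tested there. Over all genes, the count of 981 DEGs became 552 with that filter and also 552 with a pseudocount of 1. With each sample left out in turn, it ranged from 926 to 1065, and the number of members with an adjusted p below 0.05 was 8 except for 7 without shRNA-UBC9 replicate 2, where TIMP2 missed it. No member changed direction under any alternative. The log2 fold change ranged from 5.61 to 7.86 for MMP1, 4.37 to 9.67 for MMP3, 2.87 to 5.68 for MMP10 and 2.46 to 3.92 for MMP13, lowest with a pseudocount of 1 for all 4. It ranged from 1.29 to 1.59 for MMP14, 1.56 to 1.91 for TIMP1, -0.39 to -0.30 for TIMP2 and -3.04 to -2.08 for TIMP3. Deviations of same-numbered samples from their group means were not shared (correlations of -0.367, 0.073 and -0.17 over all tested genes), and a fit with this number as the replicate block gave 974 DEGs, with 6 members higher and 1 lower. With 0 to 5 steps per sample, MMP2 and MMP9 allow no comparison of a small difference.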
